A study of Arabidopsis thaliana with 12 samples.

Results

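HY5, its homologue HYH and 8 B-box (BBX) genes were followed across chromatin immunoprecipitation sequencing of MAC3A, a U-box subunit of the MOS4-associated splicing complex, in Arabidopsis thaliana seedlings. The 10 genes were taken by locus from 27444 protein-coding genes on chromosomes 1 to 5, and all 10 were in the gene table. Of the 12 samples, 6 were MAC3A libraries, with 3 titled dark and 3 titled blue, and each had its own peak list. The other 6 were titled input control, 3 per condition, and their own signal was not analysed here. The samples were given as seedlings of genotype Columbia-4 after 6 days of growth on MS medium, with light-emitting diodes as the source of blue light. The growth notes name blue light for every sample, so the titles alone tell the dark from the blue libraries. The notes describe a MAC3A-GFP line with a GFP-only line as control, whereas the antibody is given as anti-FLAG M2, and the promoter of the transgene is not stated. Nothing in the labels says that the replicates came from separate cultures, so the spread between them may be technical. The peak lists held no marker by which the seedling material could be checked.

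HY5 is a bZIP transcription factor that promotes light-grown development and binds ACGT-containing promoter elements, and HYH overlaps with it in function. In darkness the COP1/SPA ubiquitin ligase targets HY5 for degradation, and light lifts this control. B-box proteins are zinc-finger factors that act with HY5: BBX20 to BBX23 are known to promote its activity, while BBX24, BBX25 and BBX28 are known to counteract it. HY5 also regulates several of the B-box genes. The series title sets MAC3A against HY5 activities, and the question put to the data was where MAC3A peaks lay at the genes of HY5 and its partners in each condition.

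MAC3A peaks were listed at 6 of the 10 genes, and the pattern differed from gene to gene. A gene was counted when a peak summit, the point of highest enrichment, fell within the gene or no more than 1 kb beyond one of its ends. BBX28 had a summit in all 6 libraries. BBX21 had one in all 3 blue and no dark library, BBX22 in 3 blue and 1 dark, and BBX29 in 2 blue libraries. Summits at HY5 came from 2 dark libraries and 1 blue one, and those at BBX24 from 1 dark library. HYH, BBX20, BBX23 and BBX25 had none in any library. At least 1 summit in any library was found for 13.7% of all protein-coding genes. In these whole seedlings, binding in fewer cells and weaker binding per cell cannot be told apart.

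**Figure D1:**
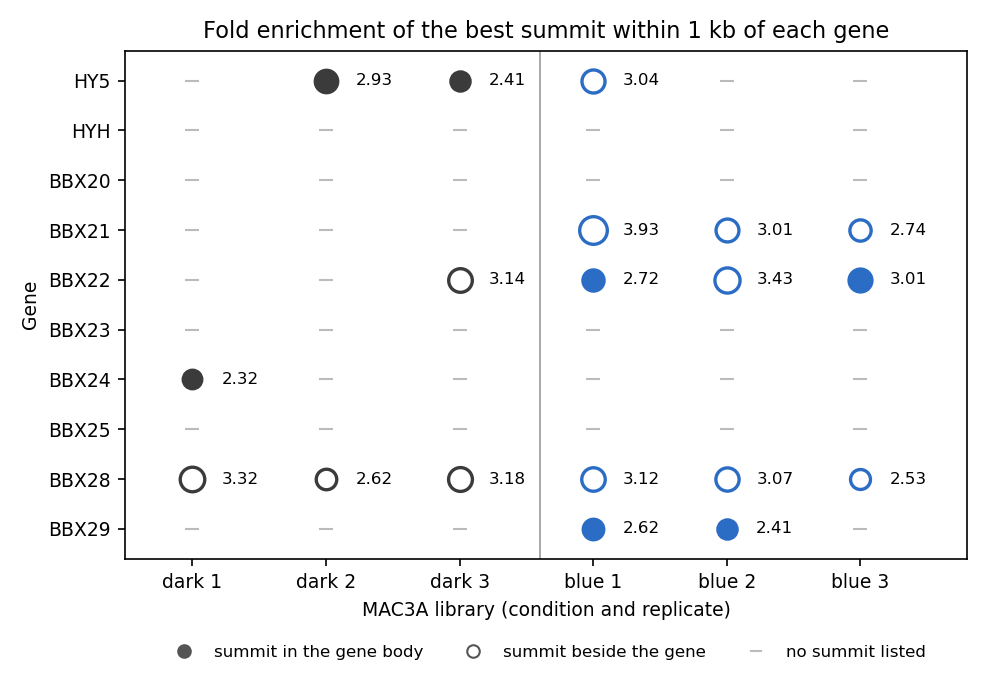
Fold enrichment, as listed by the authors' caller, of the summit with the best −log10 q at each gene (rows) in each MAC3A library (columns, 3 dark and 3 blue). Filled circles are summits in the gene body, open circles are summits within 1 kb of it, circle size follows the fold, and dashes mark no summit. BBX28 has a circle in all 6 columns and BBX21 in the 3 blue columns, and 4 genes have dashes throughout.

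Counting genes with a summit in at least 2 of 3 libraries, 2 of the 10 were called in the dark, HY5 and BBX28, where 5.62% of protein-coding genes were called. In blue light 4 were called, BBX21, BBX22, BBX28 and BBX29, where 7.37% of protein-coding genes were called. Among protein-coding genes within the members' range of gene length, the shares were 5.84% and 7.02%. Per library, 2, 2 and 3 members had a summit in the dark libraries, and 5, 4 and 3 in the blue ones. The dark mean was 2.33 ± 0.577 (SD, n = 3) and the blue mean 4 ± 1 (SD, n = 3), and the third dark and the third blue library had the same number. The share of all protein-coding genes with a summit was also higher in blue light, at 7.32% to 8.70% per library against 5.74% to 6.27% in the dark. The blue lists were longer, with 1505, 1820 and 1578 peaks against 1285, 1225 and 1169. The genes were chosen with earlier results of these data known, so no test over them was made, and with 3 libraries against 3 an exact permutation test could not go below p = 0.10.

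**Figure D2:**
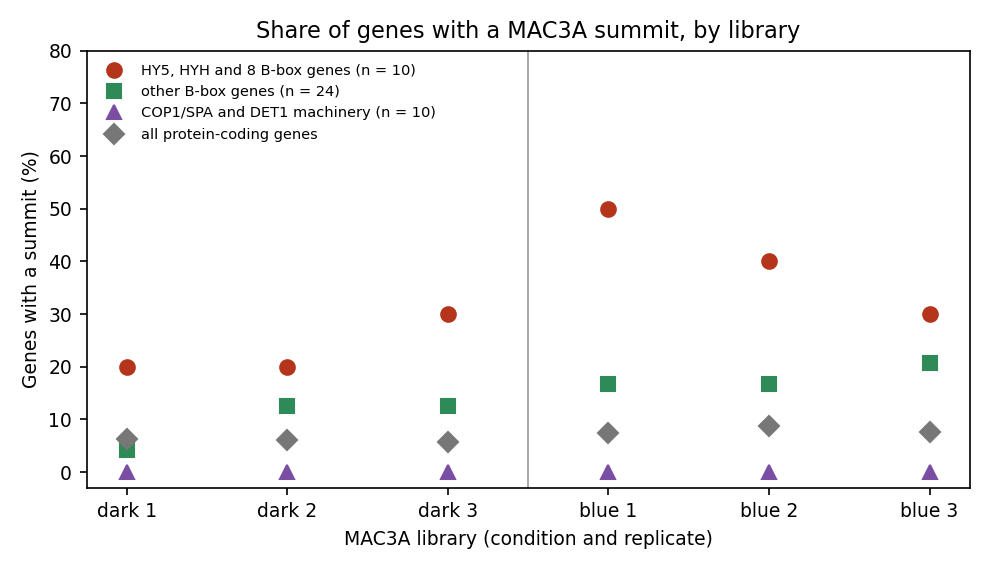
Percentage of genes with a MAC3A summit in the body or within 1 kb (vertical axis) in each library (horizontal axis), for the 10 members, 24 other B-box genes, 10 genes of the COP1/SPA and DET1 machinery, and all protein-coding genes. The members run from 20% to 50%, all protein-coding genes from 5.74% to 8.70%, and the COP1/SPA and DET1 genes are at 0 in every library.

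The 25 summits at these genes, in 22 peaks, were of modest strength. Their fold enrichment, the authors' ratio of the pileup at the summit to a local expectation, ran from 2.27 to 3.93. The median was 2.74 for the 9 dark summits, beside 3.35 over all dark summits, and 2.73 for the 16 blue summits, beside 2.81 over all blue summits. Ranked by −log10 q within their own lists, 11 of the 25 fell in the upper 50% and 2 in the upper 25%. Of the 25, 9 lay inside the body of the member and 16 beside it, some of these in the body of a neighbouring gene. The peaks were 215 to 615 bp wide.

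The depth behind each summit was solved from the authors' fold and p columns under the formulas of their peak caller, MACS2. This gave the number of fragments over the summit for 24 of the 25, from 36 to 99, and each was 2.37 to 4.25 times the fragments expected there. Away from local excess of the control, 9.96, 10.8 and 11.2 fragments were expected per position in the dark libraries, against 22.3, 19.6 and 21.4 in the blue libraries. At that background the lowest summits listed had 30, 32 and 34 fragments in the dark libraries and 56, 49 and 54 in the blue ones. The lowest folds there were 2.73, 2.69 and 2.76 for the dark lists, whereas the blue lists went down to 2.36, 2.36 and 2.38. The blue lists therefore reached lower folds at background. Whether sites listed only in blue light were missed in the dark because of depth was not tested. Intervals on fragments given here are exact Poisson 95% intervals and cover counting error only.

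**Figure D3:**
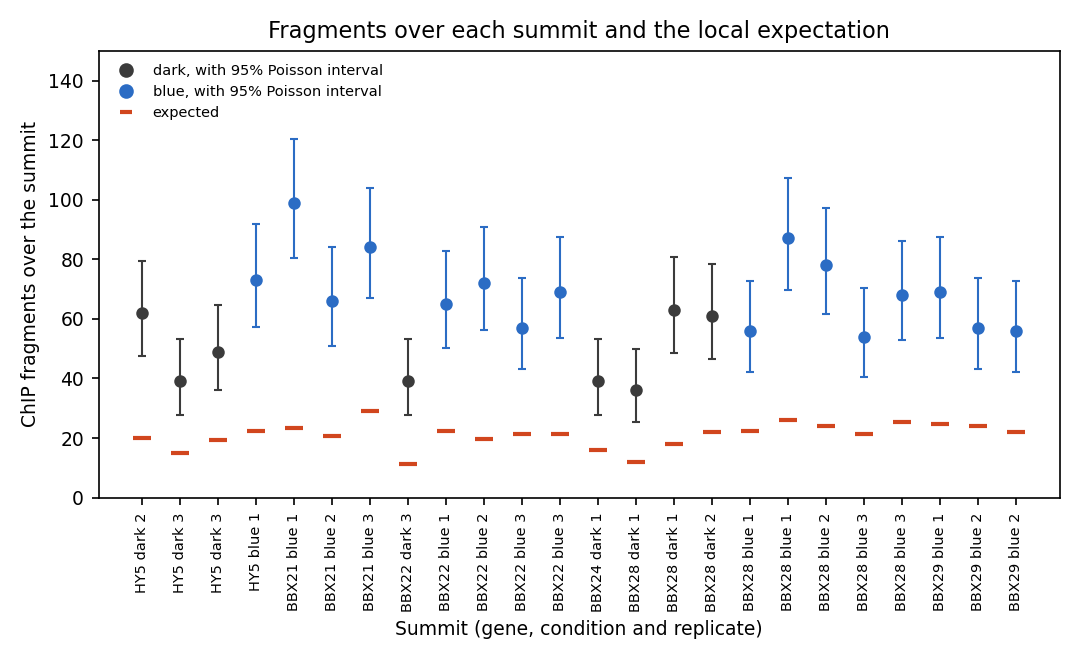
ChIP fragments over each of the 24 solved summits (vertical axis), with exact Poisson 95% intervals, beside the fragments expected there (red dashes). Summits are ordered by gene and library, dark in grey and blue in blue. Every interval lies above its expectation, which follows from the caller having listed these summits and is no separate support for them. The expectation is higher in the blue libraries at most sites.

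HY5 (AT5G11260, chromosome 5) carried dark and blue peaks at different places. In the second dark library a peak from 3594039 to 3594312 (TAIR10, as are all coordinates here) had its summit at 3594135 in the gene body, with a fold of 2.93. In the third dark library a peak from 3593929 to 3594349 had 2 summits in the body, at 3594059 and 3594090, with folds of 2.45 and 2.41. These dark peaks shared 274 bp. The submitters' code for the third dark library carries the replicate mark of the second, but the bounds, summits and folds of these HY5 peaks differ. The single blue peak, in the first blue library, ran from 3595113 to 3595337 with its summit at 3595229 and a fold of 3.04.

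The HY5 blue summit lay on the higher-coordinate side of the gene, between HY5 and OCP3 (AT5G11270), a homeodomain gene within 1 kb of the same summit. It was 1094 bp from the nearest dark summit, and a gap of 763 bp separated the blue peak from the dark peaks. The other 3 libraries listed no summit at HY5. The dark summits were also within 1 kb of AT5G11250.

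HY5's dark summits stood where the local expectation was above the background of 10.8 and 11.2 fragments. In the second dark library 62 fragments (95% interval 47.5 to 79.5) covered the summit where 19.9 were expected. In the third, 39 (27.7 to 53.3) and 49 (36.2 to 64.8) were found where 14.8 and 19.3 were expected. The blue summit had 73 fragments (57.2 to 91.8) against 22.3. Both summits of the third dark library ranked near the bottom of its list, 1297 and 1227 of 1342. Since a call needs 2 libraries, HY5 was by that rule no longer called in the dark without the second or without the third dark library. At a fold of at least 3 the order turned, with 1 blue and no dark library. When −log10 q had to reach 5 it did not turn, with 1 dark and no blue library.

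HYH (AT3G17609, chromosome 3) had no summit within the gene or its 1 kb flanks. The nearest summits lay between 1 and 3 kb away on the lower-coordinate side, in the body of IAA31 (AT3G17600), an Aux/IAA auxin-response gene. There the dark libraries had summits at 6020883, 6020861 and 6020882, with folds of 3.39, 4.67 and 2.69. The first and the third blue libraries had them at 6020999 and 6020890, with folds of 2.64 and 3.14, and the second blue library had none. With 3 kb at either end in place of 1 kb, HYH would therefore be called in both conditions through peaks that lie over IAA31.

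Among the B-box genes whose products promote HY5 activity, BBX21 (AT1G75540, chromosome 1) showed the contrast between conditions that was the same in every library. In the first blue library its peak ran from 28367648 to 28368048 with a summit at 28367875 and a fold of 3.93, the highest fold at any of the 10 genes. The second blue library had a peak from 28367591 to 28368094 with a summit at 28367902 and a fold of 3.01. In the third it ran from 28367687 to 28367992, with a summit at 28367843 and a fold of 2.74.

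All 3 BBX21 summits lay on the higher-coordinate side of the gene, within 59 bp of each other, and the peaks had 306 bp in common. They were also within 1 kb of AT1G75550, and none lay inside the BBX21 body. The fragments were 99 (95% interval 80.5 to 120), 66 (51.0 to 84.0) and 84 (67.0 to 104), where 23.3, 20.6 and 29.2 were expected. No dark library listed a summit, a pattern found for 1.14% of protein-coding genes. The first blue library stood apart in fold and in rank, 263 of 1725, while the other two were at 850 of 2139 and 787 of 1828. With lists cut to equal length, and with only summits whose −log10 q reached 5, BBX21 still had 3 blue libraries and no dark library. At a fold of at least 3, 2 blue libraries were left.

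BBX22 (AT1G78600, also LZF1, chromosome 1), another promoter of HY5 activity, had peaks across the boundary with its neighbour NADK3 (AT1G78590), an NADH kinase gene. The third dark library had a peak from 29566666 to 29566917 with a summit at 29566810 and a fold of 3.14. The first blue library had one from 29566901 to 29567115 with a summit at 29567014 and a fold of 2.72. In the second blue library the peak ran from 29566527 to 29566924, with a summit at 29566797 and a fold of 3.43.

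The third blue library had the widest peak at any of the 10 genes, 615 bp from 29566458 to 29567072, with summits at 29566633 and 29566917 and folds of 2.51 and 3.01. The dark summit and 2 of the 4 blue ones thus lay beside BBX22, inside NADK3, and the other 2 blue summits lay in the BBX22 body. The dark peak shared 252 bp with each of the second and the third blue peaks and 17 bp with the first. The dark summit had 39 fragments (95% interval 27.7 to 53.3) against 11.2 expected. The blue summits had 57 to 72 fragments against 19.6 to 22.3. When −log10 q had to reach 5, BBX22 kept 1 blue library and no dark one, and was no longer called in blue light. The dark fold of 3.14, from 1 library, lay between the blue folds. Folds depend on the depth of each list, so this does not compare the size of enrichment between conditions.

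BBX20 (AT4G39070) and BBX23 (AT4G10240), both on chromosome 4 and both of the HY5-promoting group, had no summit in any library. Neither gained one with 3 kb at either end. Of the 4 HY5-promoting B-box genes, 2 were thus called in blue light and none in the dark, where 7.37% and 5.62% of protein-coding genes were called.

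**Figure D4:**
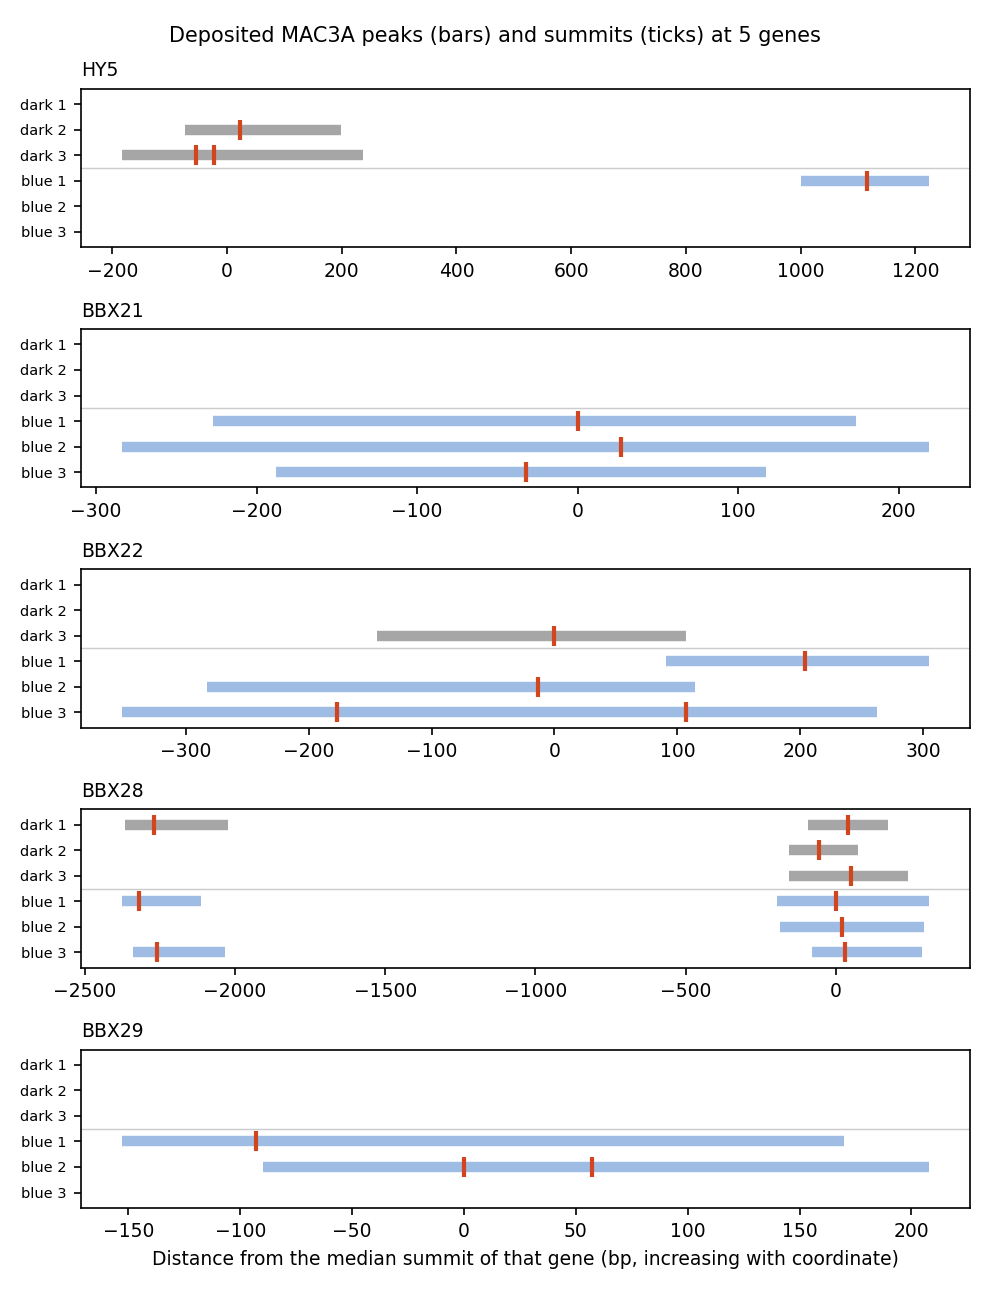
Deposited peaks (bars) and summits (red ticks) at HY5, BBX21, BBX22, BBX28 and BBX29 in the 3 dark (grey) and 3 blue (blue) libraries, as distance in bp from the median summit of that gene, with a scale of its own in each panel. The HY5 blue peak lies 763 bp from the dark peaks, the BBX21 summits fall within 59 bp, and the BBX28 summits form groups 2296 bp apart.

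Among the B-box genes whose products counteract HY5, BBX28 (AT4G27310, chromosome 4) was the member found in all 6 libraries, as 2.70% of protein-coding genes were. All of its 9 summits lay beside the gene, in separate places on either side of it. On the higher-coordinate side the dark summits were at 13677181, 13677084 and 13677191, with folds of 3.32, 2.62 and 3.18. The blue summits there were at 13677140, 13677161 and 13677171, with folds of 3.12, 3.07 and 2.53. The 6 summits fell within 107 bp, the peaks had 155 bp in common, and the folds of the conditions overlapped. At a fold of at least 3, BBX28 kept 2 dark and 2 blue libraries, and likewise when −log10 q had to reach 5. Lists of equal length left it 3 dark and 2 blue libraries. It was thus still called in both conditions, but not in all 6 libraries.

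For comparison, the best summits of the 533 merged regions found in all 6 libraries had a median span of 80 bp, and 64.2% of these regions had a span no wider than that of BBX28. The higher-side peaks of BBX28 were 266, 229 and 395 bp wide in the dark and 507, 480 and 368 bp in blue light. The mean widths were 297 ± 87.2 bp and 452 ± 73.7 bp (SD, n = 3 each), a difference of 155 bp. An exact permutation test (two-sided) gave p = 0.20. With 3 libraries per condition its smallest p is 0.10, so it cannot settle whether the widths differ. Over all peaks the median width was 363 bp in the dark and 351 bp in blue light. The third dark peak was wider than the third blue peak, so the groups overlapped. Summit positions differed by 5.33 bp on average (exact permutation test, two-sided, p = 1.00, n = 3 each), within the spread of 59.1 bp (SD) among the dark summits.

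On the lower-coordinate side of BBX28, a weaker site was listed in 1 dark and 2 blue libraries. The first dark library had a summit at 13674870 with a fold of 2.74, and the first and the third blue libraries had summits at 13674820 and 13674879 with folds of 2.36 and 2.38. These 3 summits fell within 59 bp. They ranked 1220 of 1464, 1640 of 1725 and 1692 of 1828 in their lists. In the first and the third blue libraries the summits had 56 and 54 fragments, the lowest number listed at the background in those libraries. The sites on either side were 2296 bp apart by their median summits, and no other gene lay within 1 kb of a summit at either.

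The fragments over the higher-side BBX28 summits were 63 (95% interval 48.4 to 80.6) against 17.9 expected in the first dark library and 61 (46.7 to 78.4) against 22.2 in the second. The third dark summit could not be solved. In blue light they were 87 (69.7 to 107), 78 (61.7 to 97.3) and 68 (52.8 to 86.2), where 26.2, 24.03 and 25.5 were expected. The ratio of fragments to expectation was 3.53 and 2.75 for the dark summits, against 3.32, 3.25 and 2.67 for the blue ones, so the conditions overlapped on this scale as well.

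BBX29 (AT5G54470, chromosome 5), a close relative of BBX28, had summits inside its body in 2 blue libraries. The first blue library had a peak from 22115149 to 22115472 with a summit at 22115209 and a fold of 2.62. The second had a peak from 22115212 to 22115510 with summits at 22115302 and 22115359 and folds of 2.27 and 2.41. The peaks shared 261 bp, and no other gene lay within 1 kb of these summits. The third blue library and the dark libraries listed none.

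All 3 BBX29 folds were below the lowest fold listed at background in each dark library, 2.69 to 2.76. Where the local expectation was higher, dark summits were listed at lower folds, such as 2.32 at BBX24 and 2.41 at HY5. The dark fold at BBX29 itself is not known from the lists. The summits had 69 (95% interval 53.7 to 87.3), 57 (43.2 to 73.8) and 56 (42.3 to 72.7) fragments where 24.8, 24.03 and 22.03 were expected. Since a call needs 2 libraries, BBX29 was by that rule no longer called in blue light without the first or without the second blue library. Nor was it called with lists of equal length, which left 1 blue library. No library was left at a fold of at least 3, nor when −log10 q had to reach 5.

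BBX24 (AT1G06040, also STO, chromosome 1) had a single summit, in the first dark library, at 1829629 in a peak from 1829545 to 1829854. Its fold was 2.32, with 39 fragments (95% interval 27.7 to 53.3) against 15.9 expected, and it ranked 1420 of 1464 in its list. The summit also lay in the body of AT1G06045, a gene within BBX24, and within 1 kb of AT1G06050. It was lost with lists of equal length. BBX25 (AT2G31380, also STH, chromosome 2), the closest relative of BBX24, had no summit in any library, nor with 3 kb at either end.

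Genes whose presence in the 6 libraries matched that of a member, with the closest folds, were named by rule, and genes sharing a summit with the member were left out. The match was made library by library, not on the number of libraries per condition. HY5 shared its presence in the same 2 dark libraries and the same 1 blue library with 3 protein-coding genes. Of these, RALFL22 (AT3G05490), a RALF peptide gene, and CP12-3 (AT1G76560) were the closest. Their folds differed from those of HY5 by at most 0.451 and 1.04. BBX22 had 41 such genes, with AT4G09520 and WNK1 (AT3G04910), a WNK kinase gene, closest, at largest differences of 0.161 and 0.337. BBX21 had 311, with AT2G44310 and AT2G44330 tied at 0.213. Both lie on chromosome 2 with the same lowest and highest folds, 2.84 and 3.72, so they may be matched through the same summits. BBX28 had 739, with MEE16 (AT2G18650) and AT3G05220 closest, at 0.385 and 0.477. The comparison rests on 6 libraries, and folds depend on the depth of each list.

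No MAC3A summit was listed at the genes of the machinery that degrades HY5. Of 10 genes of the COP1/SPA and DET1 complexes, COP1, SPA1 to SPA4, DET1, COP10, DDB1A, DDB1B and CUL4, none had a summit in any of the 6 libraries, where 13.7% of protein-coding genes had at least 1. In a list of only 10 genes, a count of 0 is near that share and says nothing particular about these genes. No test of the list against that background was made.

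Of the 24 other B-box genes, 3 were called in the dark and 4 in blue light, or 12.5% and 16.7%, beside 5.62% and 7.37% of protein-coding genes. BBX9 (AT4G15250) had summits in its body in all 6 libraries, in peaks between 8711077 and 8711671 on chromosome 4. Its median fold was 4.79 over the dark and 2.97 over the blue summits, beside 2.96 and 2.53 for BBX28. The BBX28 medians pool its sites on both sides of the gene. At its higher-coordinate site alone, folds ran from 2.62 to 3.32 in the dark and from 2.53 to 3.12 in blue light. BBX8 (AT5G48250) had summits in 2 dark and 3 blue libraries, beside the gene, with folds from 2.97 to 4.09.

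BBX6 (AT5G57660, also COL5) and BBX7 (AT3G07650, also COL9), both CONSTANS-like genes, had summits beside the gene in all 3 blue and no dark library, like BBX21. The BBX6 folds ran from 2.11 to 2.65 and the BBX7 folds from 2.51 to 2.83. All BBX6 folds were under the lowest folds of 2.69 to 2.76 listed at background in the dark. The BBX7 folds ran from below to above these lowest dark folds. Of the 3 BBX21 folds, 3.93 and 3.01 were above them and 2.74 lay within their range. Whether depth left these sites out of the dark lists was not tested. Where the local expectation was higher, the dark lists held lower folds, such as 2.32 at BBX24. BBX32 (AT3G21150), known to counteract HY5 and BBX21, had summits in its body in 2 dark and no blue library, with folds of 2.89 and 3.32. The remaining 19 had no summit in at least 2 libraries of either condition, and 18 of them had none at all. Members and other B-box genes were not tested against each other.

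Of 5 other bZIP genes whose products bind G-box elements (GBF1, GBF2, GBF3, bZIP16 and bZIP68), none was called in the dark and 2 were called in blue light, beside 5.62% and 7.37% of protein-coding genes. GBF1 (AT4G36730), known to interact with HY5 and HYH, had summits beside the gene in 2 blue libraries, with folds of 2.28 and 2.95. GBF2 (AT4G01120) had 1 summit in its body and 1 beside it, each in a different blue library, with folds of 2.36 and 2.40. Its peaks were spread between 481465 and 485017 on chromosome 4, and a call does not require libraries to share a site. All but the highest of these folds were below the lowest ones listed at background in the dark. Where the local expectation was higher, a dark summit was listed at 2.32, at BBX24.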

How the data were processed

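Groups were taken from the sample titles. The submitters' processing notes name build TAIR10 and the tools MACS2 2.1.1, Bowtie2, ChIPseeker and SAMtools. Neither their settings nor the control behind each list is stated in the labels. In the deposited lists, fold enrichment is a ratio at the summit over a local background, and the authors also give the −log10 p and the −log10 q, the latter adjusted within a library and at least 2. The deposited score column was not used. Fold and q depend on depth and served to describe, rank or filter within a list. Genes came from a RefSeq table for TAIR10.1, used for names and for which genes lie at a summit; it gives no strand. Printed coordinates are those of the peak lists, counted from 1.

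A summit counted for a gene in its body or within 1 kb. Fragments were solved from fold = (pileup + 1)/(expected + 1) and the Poisson p of the whole pileup, with the scaling of pileup to fragments read from the summits at background. This gave 98.3% to 99.9% of summits per list. The solving was tested on data simulated from the same formulas, which cannot show that the deposited lists follow them. Read totals were not used. Members and gene lists were chosen with earlier results of these data known. Named genes were the members, genes sharing their summits, list genes in at least 2 libraries of a condition, and the 2 genes nearest in pattern and fold to members found in at least 3 libraries. The planned promoter motifs and protein identities are not analysed here. Python 3.11.15, pandas 2.3.3, scipy 1.17.1 and matplotlib 3.10.9 were used. Alternatives covered the window, the peak threshold, list length, interval overlap and each library left out.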

Additional observations from a re-analysis of the deposited data

How the results depend on the processing

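The 2 members called in the dark, the 4 called in blue light and the difference of 1.67 members per library kept within 1.5 times or 1 SD of these values with 500 bp or 3 kb flanks, lists of equal length or interval overlap. With gene bodies only, they were 1, 2 and 0.333, since BBX21 and BBX28 have no summit in the body, HY5 has none there in blue light and BBX22 has 2 blue libraries and no dark one. Keeping folds from 3 upward made the dark count 1, and keeping −log10 q from 5 upward made the counts 1 and 2. HY5 turned at a fold of at least 3, to an excess of 1 blue library. With −log10 q from 5 upward it kept an excess of 1 dark library. Leaving out each library in turn gave 1 to 2 members in the dark, 3 to 4 in blue light and a difference of 1.17 to 2.17. The BBX28 width difference ran from 121 to 204 bp, and its difference in summit position from -28.7 to 24.8 bp, with -28.7 bp without the second dark and -1.5 bp without the third blue library; the causes were not tested. With a replicate block the differences stayed at 1.67 members, 155 bp (exact sign-flip test, p = 0.50, n = 3 pairs) and 5.33 bp (exact, p = 1.00), where 0.25 is the smallest p. The numbers were not taken as pairs: width deviations at shared regions correlated at -0.033, 0.036 and 0.04 for libraries of the same number, beside -0.11 to 0.071 across numbers. At background the dark lists did not reach folds as low as those of BBX29 in blue light. Where the local expectation was higher they did hold lower folds, such as 2.32 at BBX24.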
